A study of Homo sapiens with 6 samples.

Results

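The genes of the receptors for glutamate and GABA were examined for polyadenylated 3′ ends in IMR-32 cells, a human neuroblastoma line. Members were the protein-coding genes under 1 Mb whose symbols name an ionotropic glutamate receptor subunit (GRIA, GRIK, GRIN, GRID), a metabotropic glutamate receptor (GRM), a GABA-A receptor subunit (GABR) or a GABA-B receptor subunit (GABBR). The rule found 46 of the 19975 protein-coding genes under 1 Mb. Of these, 45 are receptor genes, and GRID2IP, which the symbol pattern also takes in, encodes a scaffold of delta receptors and is no receptor. GRIK2 (1119 kb) matches the pattern but is too long for the rule. Every peak whose summit lay in a gene, or up to 4 kb past its 3′ end, was counted for that gene.

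The libraries were 6 poly(A) 3′-seq libraries in 3 groups of 2 replicates: a DMSO control, and THZ531 at 400 nM for either 2 h or 6 h. The compound binds CDK12 and CDK13 covalently and inhibits both, and these kinases act on transcription elongation. The study asked where transcripts end when these kinases are blocked. The authors merged the reads and called peaks once, so the list names each site without saying which treatment or replicate it came from. No value below compares DMSO with THZ531, none has a replicate error, and no test was run. The depth of each library is unknown. The list gives no strand, so a peak was read on the strand of the gene it lay in.

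Glutamate is the main excitatory transmitter of the brain and GABA the main inhibitory one. AMPA, kainate and NMDA receptors are cation channels that open when glutamate binds, GABA-A receptors are chloride channels, and the metabotropic glutamate and GABA-B receptors signal through G proteins. Many of their genes are very long, and nearly all of their length is intron. A transcript ends where the RNA is cut a short way past a polyadenylation signal, AATAAA in DNA letters or a close variant, and a tail of A is added. A site of this kind within an intron gives a shortened transcript. Oligo(dT) primers can also start on a stretch of A in the genome, so a peak before such a stretch may not mark a 3′ end.

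Tall intronic sites are shown first, to let the signals counted further on be seen. The 4 shown all have a hexamer. Sites of like height in intron 1 of GRIN2C (33 and 24 reads) and in the last intron of GRIK5 (26 reads) had none. Each run ends with the 30 bases past the 3′ edge of the peak, where the cut should lie. The capitals mark the signal hexamer nearest that edge, AATAAA being given preference. All positions are GRCh38.
GRIN2C intron 1 (chr17:74857881-74858010, minus strand): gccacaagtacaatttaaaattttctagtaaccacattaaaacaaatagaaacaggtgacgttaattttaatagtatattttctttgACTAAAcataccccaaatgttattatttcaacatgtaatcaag
GRID1 intron 2 (chr10:86359457-86359586, minus strand): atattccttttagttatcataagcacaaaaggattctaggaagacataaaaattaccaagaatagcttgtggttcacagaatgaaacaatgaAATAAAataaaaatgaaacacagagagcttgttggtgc
GRID1 intron 5 (chr10:85888720-85888849, minus strand): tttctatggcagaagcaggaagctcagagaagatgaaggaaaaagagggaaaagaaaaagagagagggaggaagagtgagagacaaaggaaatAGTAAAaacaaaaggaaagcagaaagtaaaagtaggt
GRIK3 intron 9 (chr1:36848343-36848472, minus strand): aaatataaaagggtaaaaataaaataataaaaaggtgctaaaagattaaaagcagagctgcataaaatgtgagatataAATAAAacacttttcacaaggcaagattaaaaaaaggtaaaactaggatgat
The sites in intron 2 of GRID1 and intron 9 of GRIK3 had AATAAA before the edge, the site in intron 5 of GRID1 had AGTAAA and that of GRIN2C ACTAAA. In GRID1, 12 and 17 of the 30 bases past the edge were A, in GRIK3 17 and in GRIN2C 12. Reads that mapped to several places were kept by the authors, so a site in a repeat may not be placed with certainty.

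The signals at annotated 3′ ends are shown for comparison, cut from the hexamer to the edge of the peak or to the 30-base limit used here.
GRID1, end upstream of the canonical one (chr10:85601988-85602017, minus strand): tgAATAAAaaggcaaattacttgtgatcat
GRIA2, end upstream of the canonical one (chr4:157364262-157364289, plus strand): gaAATAAAcatttttctattgttttatt
GRIA2, canonical end (chr4:157366046-157366071, plus strand): taCATAAAacatgttcttacaaaagg
GRIA4, end in intron 10 (chr11:105913086-105913110, plus strand): taAATAAAattgattgagaaattca
GABRA5, canonical end (chr15:26949181-26949210, plus strand): aaAATAAAaaatgaactgatcttgtggaca
GABRA3, canonical end (chrX:152166228-152166257, minus strand): ttATTAAAccctttctgaattgtacttggt
GRM8, canonical end (chr7:126438597-126438624, minus strand): atAATAAAggaatgttttgcaaatgttg
The end of GABRA3 carried ATTAAA, the canonical end of GRIA2 had CATAAA, and the others had AATAAA.

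A peak was kept when its −log10 q was at least 5, the cutoff of the study. Heights are given as reads at the summit, the number of extended reads over the highest point of the peak in all libraries together. The peak caller by default keeps 1 read per position and strand, so this number counts distinct read starts and is not an expression level. Any peak, before the cutoff, was found in 40 of the 46 genes, or 87.0% (95% Wilson interval 74.3 to 93.9), beside 81.0% of all protein-coding genes. With the cutoff, 37 genes had a peak (background 76.9%). A peak at an annotated transcript end, from 200 bp before to 600 bp past it, was found in 29 genes or 63.0% (48.6 to 75.5), beside 64.0% of all genes, and a peak at the end of the canonical transcript in 22 (background 53.6%). An intronic peak was found in 30 genes (background 62.2% of genes with an intron). The 95% interval of each of these shares included the background. Intervals cover counting error only.

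The genes fell into 5 kinds. Shares of these kinds over all protein-coding genes are not given here, so the split is not shown to be particular to the receptor genes. Over all genes, 81.0% had any peak before the cutoff and 64.0% an end peak. Of those with an intron, 62.2% had an intronic peak. An end peak and an intronic peak were both present in 22. An end peak with no intronic peak was found in 7, among them GABRA2, GABRB2, GABRE, GRIA1, GRIN3B and GRM2. Intronic peaks without an end peak were found in 8, among them GABRA6, GABRB1, GABRR2, GRID2IP, GRIK1, GRM6 and GRM7. That of GABRA6 lay upstream of its canonical start. GABRP, GABRR3 and GRM3 had only peaks below the cutoff, 1 in each, with 5, 4 and 6 reads at the summit. GABRA4, GABRD, GABRG1, GABRR1, GRIN2A and GRIN2B had no peak at all. In bulk libraries, few cells with a transcript and little of it in every cell cannot be told apart.

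**Figure D1:**
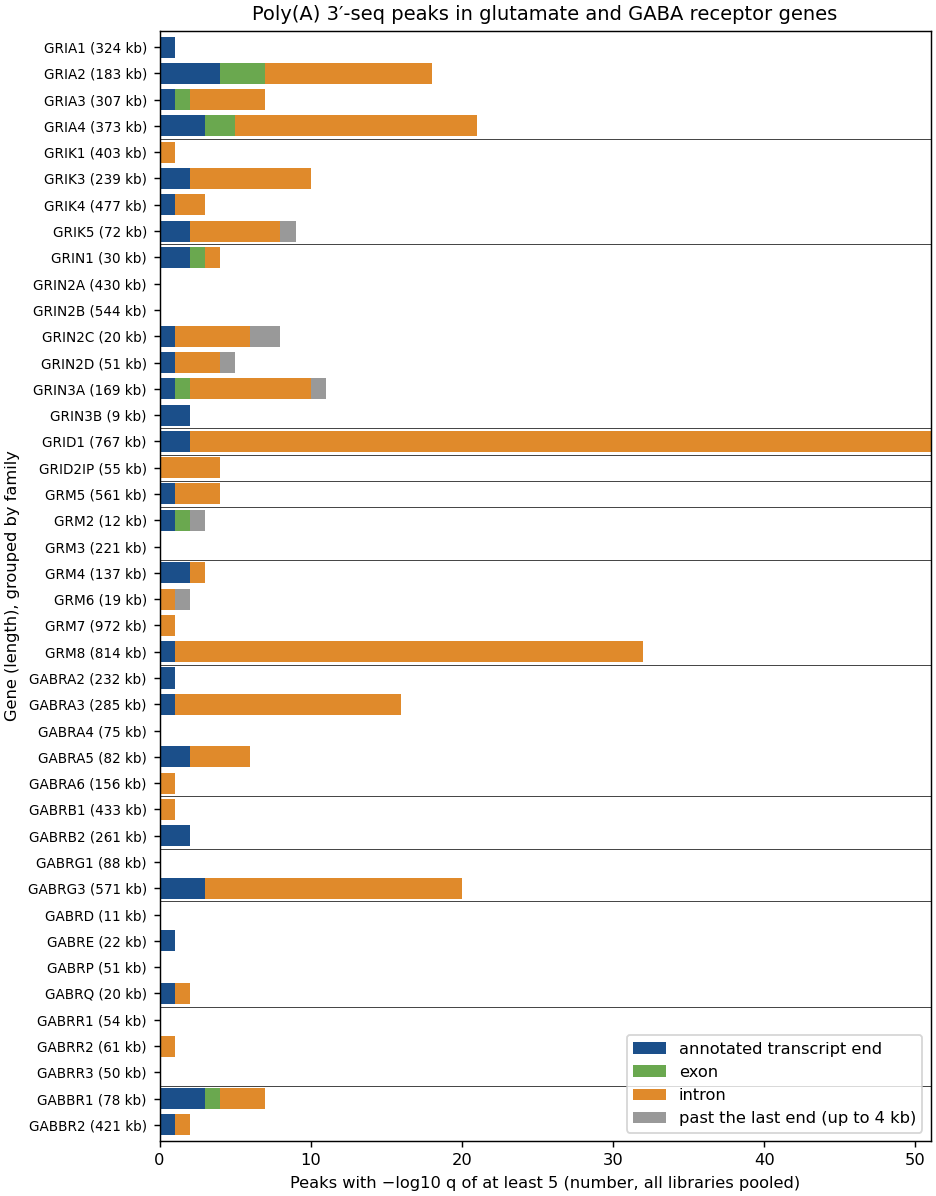
Number of peaks with −log10 q of at least 5 in 42 of the 46 genes (horizontal axis, pooled list), split by class and grouped by family, with the gene length in kb beside the symbol. GRID1 with 51 peaks and GRM8 with 32 stand far to the right, while long genes such as GRIN2A, GRIN2B and GRM7 have 0 or 1.

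The 46 genes held 319 peaks past the cutoff. A peak where members overlap counts for each of them, and 314 were distinct. Introns held 249 peaks, or 78.1% (73.2 to 82.2), beside 63.4% over all protein-coding genes. Among 119 voltage-gated and related cation channel genes, taken as the most alike group of neuronal genes, the share was 78.8% (76.0 to 81.3). Annotated transcript ends held 51 peaks (16.0%, 12.4 to 20.4), beside 20.6% over all genes and 12.6% in the channel genes. Exons held 12 and the stretch from 600 bp to 4 kb past the last end held 7. These intervals count peaks as independent although many share a gene, and the spread between genes was not measured. For introns, the intervals of the receptor and channel genes overlapped and both lay above the share over all genes. For transcript ends they also overlapped, and both lay below it, in the receptor genes narrowly (upper bound 20.4% against 20.6%). The groups differ in length, with medians of 166 kb in receptor genes, 68.3 kb in channel genes and 30.2 kb in all genes with introns. Below the cutoff lay 250 further peaks, 222 of them intronic and 14 at transcript ends.

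The peaks were unevenly spread over the genes. The 5 genes with the most peaks held 177 of the 319, or 55.5%, and the 10 genes with the most peaks held 241, or 75.5%. Without GRID1, which was left out after its values were seen, the intronic share was 74.6% (69.1 to 79.5). The transcript-end share was then 18.3% (14.1 to 23.3), an interval that includes the 20.6% over all genes.

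Among the AMPA receptor genes, which encode the subunits of fast excitatory transmission, all 4 had a transcript-end peak. They held 47 peaks, 32 of them intronic. GRIA4 had 21 peaks, of which 16 were intronic and 3 lay at annotated ends. Its tallest peak, with 34 reads over a background of 1.49, lay at the end of a short protein-coding transcript in intron 3 of 16, 4332 bp past the start of the canonical transcript. Only 9.12% of the canonical coding sequence lies upstream of that end. A further annotated end of GRIA4, in intron 10 with 46.8% of the coding sequence upstream, had 12 reads, and the canonical end had 9. The short end was thus taller than both later ends. Its intronic peaks had 7 to 16 reads, 8 of them in intron 4 and 6 in intron 3.

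GRIA2, whose RNA editing sets the calcium permeability of AMPA receptors, had 18 peaks, 11 of them intronic. Its tallest end peak, with 31 reads, lay 3 bp past an annotated end that precedes the canonical end, where 16 reads were found. The other annotated ends of GRIA2 lay early in the gene, with 9 reads and 11 reads at 19.6% and 25.1% of the coding sequence. Of its intronic peaks, 5 lay in intron 2, which holds 58.5% of the canonical intronic bases. GRIA3 had 7 peaks, and its tallest intronic peak (13 reads) was above its end peak (7 reads). GRIA1 had a single peak, with 13 reads, at an annotated end other than the canonical one.

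The kainate receptor genes held 23 peaks. GRIK3 had 10 peaks, 8 of them intronic, and its peak of 22 reads in intron 9 was above the 15 reads at its canonical end. GRIK5, a kainate subunit that needs a partner to form a channel, had 9 peaks, and its canonical end had 34 reads. That peak lay 407 bp past the end, over a background of 6.48 reads, and the list cannot say whether it belongs to GRIK5. The tallest intronic peak of GRIK5, with 26 reads, lay in its last intron. An annotated end in intron 15, of a transcript marked for nonsense-mediated decay, had 16 reads over a background of 0.440. GRIK4 (477 kb) had 3 peaks with an end of 11 reads. GRIK1 (403 kb) had 1 peak of 8 reads in intron 16, where the gene BACH1 lies on the opposite strand, and no end peak.

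The NMDA receptor genes differed widely among themselves. GRIN1, the subunit every NMDA receptor needs, had 4 peaks: its end had 10 reads, and an annotated end in intron 8 had 12. GRIN2A (430 kb) and GRIN2B (544 kb), the main partners of GRIN1 in the forebrain, had no peak even without the cutoff. GRIN2C and GRIN2D, short genes of 19.5 kb and 51.3 kb, had 8 and 5. The 3 peaks of GRIN2C in intron 1 had 34, 33 and 24 reads, all above the 14 reads at its end, and lay before the start codon. Their local background was 5.32 to 5.97 reads, the gene FDXR ends 992 bp upstream of GRIN2C on the same strand with an end peak of 36 reads, and whether the intron 1 peaks belong to GRIN2C was not tested. The tallest peak past the end of GRIN2C, with 36 reads, lay in TMEM104 on the opposite strand.

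In GRIN2D, the tallest of 3 intronic peaks, with 28 reads, was above the 14 reads at the end, but all 3 were followed by at least 17 A in 25 bases. A further peak of 20 reads past its end lay in GRWD1, which starts 909 bp past GRIN2D on the same strand. GRIN3A and GRIN3B encode subunits that lower the calcium entry of NMDA receptors. GRIN3A (169 kb) had 11 peaks, of which 8 were intronic and 6 of these followed at least 50% of the coding sequence. Its end had 14 reads. GRIN3B (9.31 kb) had an end of 42 reads, as tall as any in the 46 genes, and no intronic peak. TMEM259 lies on the opposite strand at that end, and the list cannot say which gene the reads came from.

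GRID1, a delta receptor that does not open to glutamate and takes part in forming synapses, had 51 peaks in 767 kb, 49 of them intronic. It had 2 end peaks. The taller one, with 42 reads over a background of 0.810, lay at an annotated end before the canonical one, which had 11 reads, and GRID1-AS1 lies on the opposite strand at both. Its intronic peaks had 7 to 27 reads and were spread along the gene, 14 in intron 4, 13 in intron 2 and 5 each in introns 3 and 8. A hexamer was found before 32 of the 49, AATAAA before 21 and at least 18 A of 25 after 12. GRID2IP had 4 peaks of 7 or 8 reads, all intronic, none with a hexamer and all followed by at least 20 A in 25 bases.

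Among the metabotropic receptors, GRM8 held 32 of the 48 peaks. Of the group I genes, which couple to Gq, GRM5 (561 kb) had 4 peaks and an end of 12 reads, where GRM5-AS1 lies on the opposite strand. Of group II, GRM2 (11.5 kb) had an end of 22 reads, and GRM3 had no peak past the cutoff. Most receptors of group III are presynaptic and couple to Gi. GRM8 (814 kb) had an end of 19 reads and 31 intronic peaks of 7 to 16 reads, 11 in intron 3 and 9 in intron 6. GRM7 (972 kb), the longest gene of the set, had 1 peak of 7 reads in intron 2, followed by 19 A in 25 bases. GRM4 (137 kb) had 3 peaks and its tallest end had 13 reads. GRM6, the receptor of retinal ON bipolar cells, had no end peak, and its intronic peak of 7 reads lay opposite an unnamed gene.

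The GABA-A subunit genes lie largely in clusters. The chromosome X cluster (GABRE, GABRA3 and GABRQ) held 19 peaks in 704 kb, or 2.70 per 100 kb. The chromosome 4 cluster (GABRG1, GABRA2, GABRA4 and GABRB1) held 2 in 1391 kb, or 0.144 per 100 kb.

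GABRA5 had 6 peaks. Its canonical end, with 30 reads and AATAAA, lay clear of other genes. All of its other 5 peaks lay where a gene also runs on the opposite strand, so that the strand of these peaks cannot be told. GABRG3 (571 kb) had 20 peaks of 7 to 12 reads, 17 of them intronic, with 12 in intron 3. Of the 17, 7 lay where GABRG3-AS1 runs on the opposite strand, and at least 18 A in 25 bases followed 7. The canonical end of GABRG3 had 5 reads and did not pass the cutoff. GABRA3 had 16 peaks, of which 15 were intronic, and an end of 24 reads, where an unnamed gene lies on the opposite strand. At least 18 A in 25 bases followed 11 of these 15, including all 5 in intron 1. GABRQ had an end of 22 reads, where MAGEA3-DT lies on the opposite strand, and GABRE one of 9. GABRB2 had ends of 12 and 7 reads. GABRA6 and GABRB1 had 1 intronic peak each, of 7 and 11 reads, and GABRA2 had 7 reads at an annotated end in intron 3. The rho genes, known from the retina, held 1 peak among 3 genes, in GABRR2. Of the GABA-B genes, GABBR1, which binds the ligand, had 7 peaks with a canonical end of 20 reads. GABBR2, which couples to the G protein, had 2. Its only end peak past the cutoff, with 9 reads, had no hexamer and was followed by 24 A in 25 bases. The study discarded peaks with both traits, but this one is counted here. The peak at the canonical end of GABBR2, with 6 reads, lay below the cutoff.

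**Figure D2:**
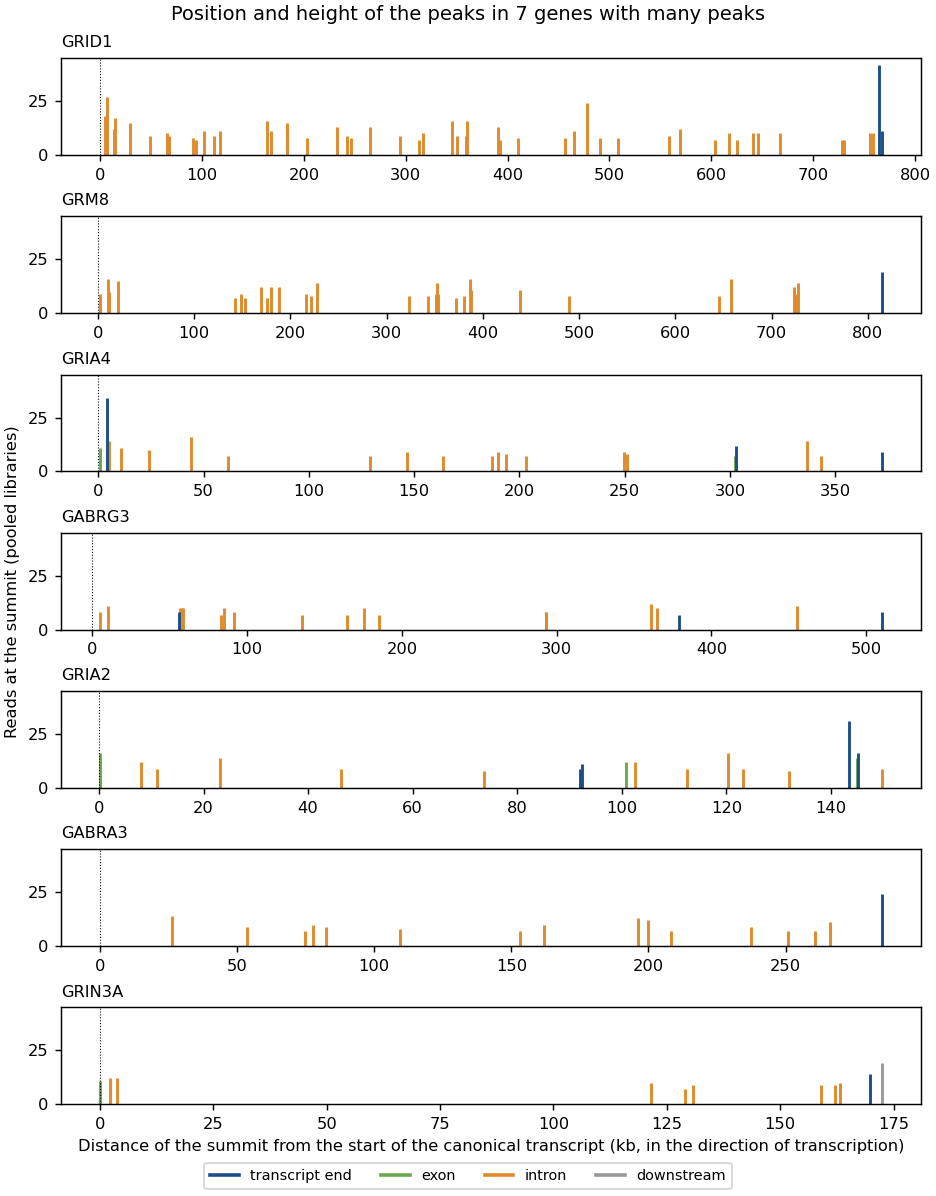
Position of each peak with −log10 q of at least 5 along 7 genes with many peaks, as distance of the summit from the start of the canonical transcript in kb (horizontal axes differ), against reads at the summit in the pooled libraries (vertical axes alike). Lines are coloured by class. Intronic peaks are spread along the whole of GRID1 and GRM8, and in GRIA4 the tallest peak (34 reads) is an annotated end 4.33 kb from the start.

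The number of intronic peaks did not follow gene length closely. Of the 21 genes of at least 200 kb, 6 had 10 or more intronic peaks and 11 had 0 or 1. The same count over all genes is not given here, so this split is not shown to be particular to the receptor genes. From 200 to 500 kb, the median over all protein-coding genes was 18 with an end peak and 1 without one. In receptor genes of that length it was 2 and 0.5. GRM8 and GRM7, group III receptors of 814 kb and 972 kb, had 31 and 1. GRID1 (767 kb) had 49 and GRIN2B (544 kb) had 0. Across the 46 genes, Spearman's rho of length with the number of intronic peaks was 0.34, beside 0.66 over the 18841 protein-coding genes with introns, and rho of length with peaks per base of intron was −0.04. Genes share all libraries and are not replicates, so these values are descriptions.

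The number of intronic peaks differed with the presence of an end peak. The 29 genes with a transcript-end peak held 237 intronic peaks, or 3.29 per 100 kb of intron. The 17 genes without one held 12, or 0.340 per 100 kb. Over all protein-coding genes the values were 8.97 and 2.16, and over the channel genes 6.74 and 1.07. These pooled values rest on genes of different lengths. Among genes under 50 kb, the receptor genes had 10.6 per 100 kb with an end peak (6 genes) and 6.16 without one (2 genes), beside 9.24 and 5.43 in channel genes and 12.7 and 3.82 in all genes. The tallest end peak had a median of 14 reads over the 29 receptor genes, beside 16 in channel genes and 25 in all genes with such a peak. Among genes under 50 kb with an end peak, the median number of intronic peaks was 0.5 in receptor genes and 1 in both channel genes and all genes, and from 50 to 200 kb the medians were 3.5, 5 and 8. From 200 to 500 kb, the 11 receptor genes with an end peak had a median of 2 intronic peaks, beside 16 in 13 channel genes and 18 in 885 protein-coding genes. From 500 to 1000 kb the medians were 24 in 4 receptor genes, 29 in 4 channel genes and 34.5 in 180 protein-coding genes.

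**Figure D3:**
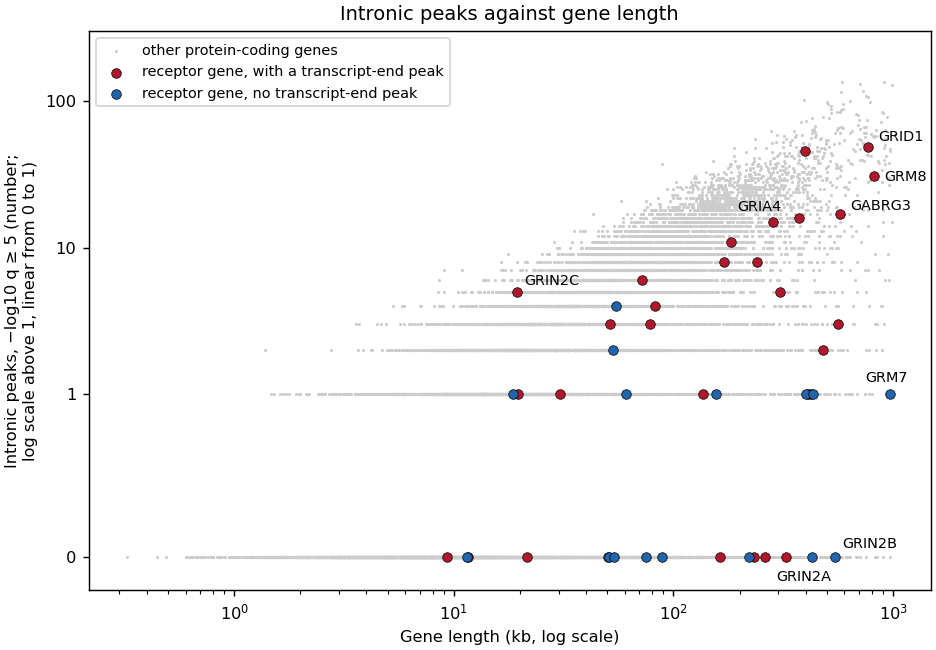
Number of intronic peaks with −log10 q of at least 5 against gene length in kb (log scale) for the protein-coding genes with introns (grey) and the receptor genes with (red) or without (blue) a transcript-end peak. The vertical axis is logarithmic above 1 and linear below it. GRID1 and GRM8 lie among the long genes with many peaks, and GRIN2A, GRIN2B and GRM7 lie at 0 or 1.

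Pooled over the genes with an end peak, intronic peaks were densest near the start. In the first 10 kb past the canonical start there were 9.04 intronic peaks per 100 kb of intron (24 peaks in 14 genes), with a median of 15 reads. From 10 to 50 kb there were 3.68, from 50 to 200 kb 3.50, and beyond 200 kb 2.56, with medians of 12.5, 9 and 9 reads. The median background fell likewise, from 1.36 reads to 0.340. The 4 distances drew on introns of 29, 28, 21 and 14 genes, so position and gene length cannot be told apart. Over all protein-coding genes with an end peak the densities ran from 15.4 to 5.87 over the same distances. In channel genes the density was 12.8 in the first 10 kb and then 7.17, 7.34 and 6.92, so that it changed little past 10 kb.

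Intron number gave no such excess in the receptor genes, by another measure that sets peaks against the intronic bases of each gene. Of the 239 receptor peaks in numbered introns, 8.37% (5.48 to 12.6) lay in the first intron, which would hold 7.92% if peaks were placed evenly over each gene's intronic bases. In all genes these were 31.6% and 26.4%. The first 4 introns held 63.6% of the receptor peaks, against 61.9% of the bases. Of these 239 peaks, 11 lay before the start codon and 184 after it with under 50% of the coding sequence upstream. In the 44 others, at least 50% was upstream. The median was 24.0%, beside 21.2% in channel genes, and the median over all genes lay between these. Peaks before the start codon made up 4.60% (2.59 to 8.05), beside 5.65% in channel genes and 14.2% over all genes. With these included, peaks with under 50% upstream made up 81.6% (76.2 to 86.0), beside 77.4% in channel genes and 71.3% over all genes. Whether any transcript that ends at the intronic peaks is translated was not measured.

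Annotated ends inside introns of the canonical transcript held 16 of the 51 end peaks, in 12 genes, among them GABBR1, GABRA2, GABRA5, GABRG3, GRIA2, GRIA4, GRIK3, GRIK5, GRIN1 and GRIN3B. A hexamer was found before 11 of the 16 and AATAAA before 7, and a transcript annotated as protein-coding ended at 7. The same shares over all genes are not given here, so 16 of 51 is not shown to be unusual. The 34 reads of GRIA4 were the most among them, followed by 18 in intron 4 of GABBR1 and by 16 both there and in intron 15 of GRIK5. Both GABBR1 ends were of retained-intron transcripts and had no hexamer, and the GRIK5 end had AATAAA. The canonical ends held 22 peaks and other annotated ends outside the canonical introns 13.

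In 17 of the 22 genes with both kinds of peak, the tallest end peak was above the tallest intronic peak. Over all protein-coding genes this held in 6158 and the reverse in 3439, with 353 equal, and in the channel genes in 24 against 26. Among the receptor genes the reverse held in 5: GRIN2C (34 intronic against 14 reads), GRIN2D (28 against 14), GRIK3 (27 against 15), GRIA3 (13 against 7) and GABRG3 (12 against 8). Over all peaks, the median was 13 reads at transcript ends (19 in all genes) and 10 in introns (12 in all genes). The stricter cutoff of 20 on −log10 q left 16 peaks. Of these, 9 were transcript ends, 6 were intronic and 1 was the TMEM104 peak past GRIN2C. The intronic ones included peaks of GRID1, GRIK3 and GRIN2D.

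**Figure D4:**
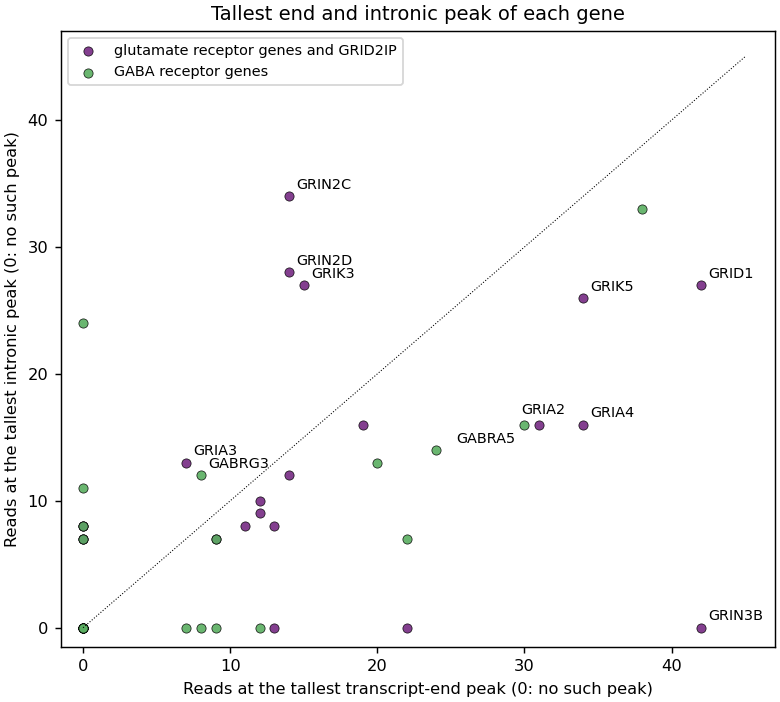
Reads at the tallest intronic peak (vertical axis) against reads at the tallest transcript-end peak (horizontal axis) for each of the 46 genes in the pooled list, 0 where there is no such peak. The dotted line marks equal height. GRIN2C, GRIN2D, GRIK3, GRIA3 and GABRG3 lie above it together with genes that have no end peak, and GRID1 is tall on both axes.

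The sequences at the intronic peaks held polyadenylation signals on the strand of the gene. Any of the 12 hexamers was found in the 100 bp before the 3′ edge of 156 of the 249 intronic peaks, or 62.7% (56.5 to 68.4), beside 57.0% over all genes. On the opposite strand of the same peaks the share was 37.8% (32.0 to 43.9), and of windows placed every 100 bases along the introns of these genes 44% held a hexamer. AATAAA was found before 30.9% (25.5 to 36.9), beside 26.4% over all genes, against 10.8% on the opposite strand and 8.95% of intron windows. The own-strand intervals, which count peaks as independent, lay above both comparisons. At the 51 transcript-end peaks a hexamer was found before 76.5% (63.2 to 86.0) and AATAAA before 47.1%, against 62.7% and 17.6% on the opposite strand.

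Stretches of A were also on the strand of the gene. At least 22 A in 25 bases, within 50 bp past the edge, followed 16 intronic peaks (6.43%, 3.99 to 10.2), beside 5.46% over all genes, and 0 of 249 on the opposite strand, which allows a share of up to 1.20% by 3 counts of the total, or 1.52% by the upper Wilson bound. At least 18 A followed 79 peaks, or 31.7% (26.3 to 37.7), beside 26.5% over all genes and 2.81% on the opposite strand. At transcript ends the share with at least 18 A was 7.84% (3.09 to 18.5). Among the 79 intronic peaks with at least 18 A, 43.0% had a hexamer, near the share in windows along the introns, and among the other 170 it was 71.8%. Intronic peaks with a hexamer and without such a stretch numbered 122, or 49.0%. At least 22 A and no hexamer, the traits for which the study discarded peaks, were found at 12 intronic peaks. That was 4.82% (2.78 to 8.23), beside 4.48% over all genes, and these peaks are kept in the counts here. How many of the intronic peaks began on genomic A was not tested.

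**Figure D5:**
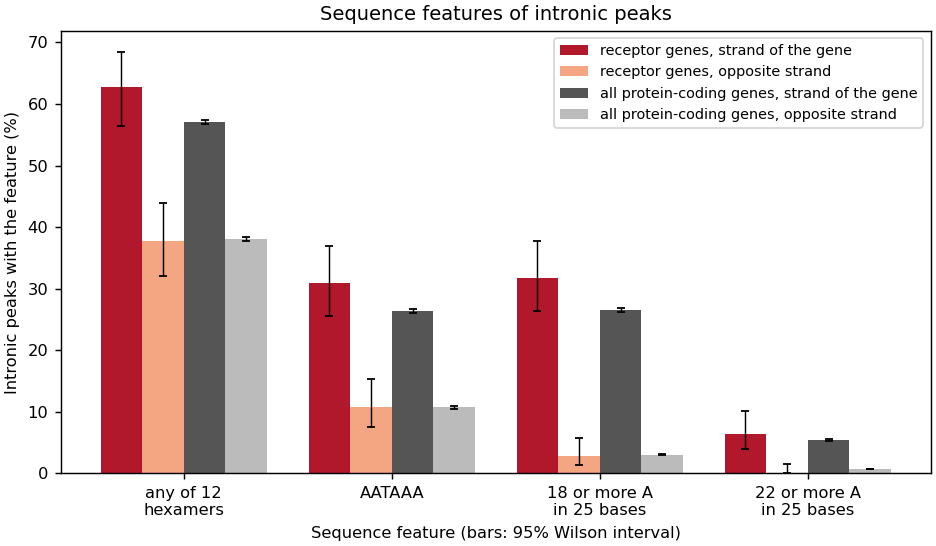
Percent of intronic peaks with a signal hexamer or AATAAA in the 100 bp before the 3′ edge, or with at least 18 or 22 A in 25 bases past it, on the strand of the gene and on the opposite strand. Bars are the receptor genes (249 peaks) and all protein-coding genes (83141 peaks), and error bars are 95% Wilson intervals. In each feature the strand of the gene is higher, and the receptor genes are near all genes.

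Genes that work with these receptors were described from lists of symbols. Of 17 auxiliary subunit genes, which set the gating and transport of the receptors, 11 had an end peak (64.0% of all genes had one). KCTD12, a GABA-B auxiliary subunit, had an end of 49 reads, and KCTD16 and KCTD8 had 34 and 37 intronic peaks. Of 21 scaffold genes found, 20 had an end peak. GPHN, which encodes gephyrin of inhibitory synapses, had 82 intronic peaks, and GABARAP had an end of 41 reads. Of 19 genes of glutamate and GABA synthesis, breakdown and transport, 14 had one, among them GLUL (77 reads), the glutamine synthetase gene, and the glutamine carrier SLC38A1 (50 reads). GAD1 and GAD2, which make GABA, and SLC32A1, which loads it into vesicles, had no peak past the cutoff.

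The label of the line was compared with marker genes. All 12 sympathetic neuroblast markers had an end peak, and the tallest end peak of each had from 19 reads at DBH to 123 at PHOX2A. STMN2 (72) and HAND2 (71) also lay above the 42 reads of the tallest receptor gene ends, GATA2 had 42, and HAND1 (28), CHGB (27), TH (23) and DBH lay below. The markers of other cell types were partly present, 3 of 4 for Schwann cells, 3 of 6 for fibroblasts, 1 of 4 for immune cells, 2 of 3 for astrocytes and 2 of 6 for central neurons. COL1A2, COL3A1, DCN, PTPRC, CD3E, CD14, AQP4, NEUROD6 and TBR1 had no peak past the cutoff.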

How the data were processed

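Poly(A) 3′-seq libraries of IMR-32 cells (DMSO, and THZ531 for 2 h or 6 h, 2 each) were made by the study with a kit whose reads start at the cleavage site. Per the study's methods, the authors mapped reads to GRCh38 with STAR (2.5.1b in the submitters' processing notes), merged the samples, taken here to be these 6, and called peaks with MACS2 (2.1.1) on reads extended to 100 bp without a control. The deposited list gives a fold enrichment, a ratio of pileup plus 1 to background plus 1, the −log10 p-value and −log10 q-value, a score derived from q, and the summit offset. It pools all libraries and holds no strand. Depth per library is not given in the sources used here.

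Reads at the summit and the local background were solved from the deposited fold and −log10 p (largest misfit 0.000172), after tests on simulated data. MACS2 keeps 1 read per position and strand unless told otherwise, which caps the height at 200 reads, the highest in the list. Each summit was placed in Gencode release 44 genes (the study used release 27), as transcript end, exon, intron or downstream, in this order. Introns and coding share refer to the canonical transcript. The 12 polyadenylation hexamers of the study were searched in 100 bp before the 3′ edge of each peak, and A stretches (at least 22, or 18, A of 25) in 50 bp past it. Python 3.11.15, pandas 2.3.3 and SciPy 1.17.1 were used.

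The members and the lists were chosen with earlier results of these data known. The named genes were the 10 members with the most peaks, the 10 with the tallest end peak, the 5 tallest intronic peaks, and every member with intronic peaks but no end peak or the reverse. Some of these genes and sequences are not reported here one by one, though their peaks are in the totals. The other members were described by family, and peaks of equal interest were named after their values were seen. Alternatives were other q cutoffs, removal of peaks in genes on the opposite strand or before A, a narrower end window, placement by overlap, merged peaks, AATAAA alone and the opposite strand.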

Additional observations from a re-analysis of the deposited data

How the results depend on the processing

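The list pools all libraries, so leaving out each replicate in turn was not run. No paired analysis was possible because no library has values of its own. Of 60 recomputed values, 38 stayed within the interval of the reported value or within 1.5 times of it. Without a cutoff there were 569 peaks, 82.8% of them in introns and 11.4% at transcript ends, and a median of 0.0225 intronic peaks per kb of intron over the genes, against 0.00600 with it. With −log10 q of at least 20 there were 16 peaks, 37.5% in introns and 56.2% at ends, with an end peak in 9 genes and an intronic peak in 5, a median density of 0, a hexamer before 100% of the intronic peaks, and 0% each before 22 A or in the first intron, over 6 peaks. Without peaks before at least 18 A, the intronic share was 72.3%, the hexamer share 71.8%, the share before 22 A by construction 0 and the median density 0.00247 per kb. Without peaks in a gene on the opposite strand that density was 0.00245. An end window of 100 bp either side left 11.3% of peaks at ends. AATAAA alone was found before 30.9% of intronic peaks, any hexamer on the opposite strand before 37.8%, and at least 18 A after 31.7%. Without the peaks of GRID1, an alternative chosen after seeing the data, the intronic share was 74.6% and the hexamer share 62.0%. The cause of these shifts was not tested. Height is capped and depth is unknown, so that a gene without a peak is not shown to be silent.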
